A study of Mus musculus with 5 samples.

Results

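The regions described here were the promoters of protein-coding genes at which chromatin pulled down with each of 2 antibodies against Pcgf6 was at least 2 times as deep as Input DNA. A promoter was taken as 2 kb to either side of the main transcription start site (TSS) of a gene on mm9 (NCBIM37). Of 22359 such promoters, 19127 had an Input depth sum of 6000 to 60000, which is about 20 to 200 fragments of 300 bp, and were called eligible. The depth sum of each file was divided by the total depth of that file, and 181 of the 19127 eligible promoters reached 2 times the scaled Input in each of the 4 ChIP files (0.946%). The members were thus chosen by the measured ChIP and Input depths, so their ratios are given as a description without a test.

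All 5 libraries came from CCE, an established mouse embryonic stem cell (ESC) line grown with LIF at fewer than 15 passages and cross-linked with disuccinimidyl glutarate and paraformaldehyde. Pcgf6 chromatin was isolated in 2 replicates with a Santa Cruz antibody (sc-160649) and 2 replicates with an Abcam antibody (ab48010), and 1 Input library served as the background for both. The cells carried no deletion and received no other treatment, and no library from cells without Pcgf6 and no library made with a control antibody was analysed here.

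Pcgf6 is the Polycomb group ring finger protein that defines a variant form of Polycomb repressive complex 1. The complex is held together by Mga, which binds DNA as a dimer with Max at the E-box, and it also holds E2f6, its dimerisation partner Tfdp1, L3mbtl2 and histone deacetylases. In ESCs this complex is known for silencing germ line genes, many of which have CpG-rich promoters and are otherwise used only in germ cells.

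The depth limits every value below. There were 22801077 fragments in the Input, 2289605 and 2299487 in the Santa Cruz replicates, and 2761103 and 2849850 in the Abcam replicates. Most fragments of a replicate came back in its partner (88.2% of Santa Cruz replicate 1 and 88.5% of Abcam replicate 1 in the respective replicate 2), so the pair was counted as 1 sample per antibody, with shared fragments counted once (2559923 and 3155223 fragments). There was therefore no independent replicate and no SD, and the 95% intervals (Clopper-Pearson) cover counting error only. An eligible promoter held a median of 75 Input fragments, 7 with Santa Cruz and 9 with Abcam, while a member held 62, 20 and 27.

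The sequence beneath the signal is shown for 8 members that were picked because they hold a motif, to show what the motifs described with the results look like in place. The same 201 bp held none of the 6 motifs searched at Neto2, BC016423, Boll and Ptpdc1, which are also among the highest members, or at E2f6 and Mga of the complex itself. Each line gives 201 bp of the plus strand around the place where the fragments of both antibodies were densest, taken from the NCBIM37 genome. Capitals mark the E-box (CACGTG), an E2F site (GCGGGAA), an NRF1 site (GCATGCGC) and a YY1 site (AAGATGG), each searched on both strands. The motif shares given later are counted over 500 bp around the maximum. That wider window held E2F and NRF1 sites at Boll, an E-box at Ptpdc1, and NRF1 and YY1 sites at E2f6. It held none of the motifs at Neto2 and BC016423.
Ddx4, chr13:113442378-113442578: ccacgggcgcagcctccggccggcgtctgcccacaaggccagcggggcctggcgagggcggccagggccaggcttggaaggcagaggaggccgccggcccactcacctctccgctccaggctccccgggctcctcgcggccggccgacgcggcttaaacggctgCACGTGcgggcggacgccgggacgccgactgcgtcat
Tdrkh, chr3:94216598-94216798: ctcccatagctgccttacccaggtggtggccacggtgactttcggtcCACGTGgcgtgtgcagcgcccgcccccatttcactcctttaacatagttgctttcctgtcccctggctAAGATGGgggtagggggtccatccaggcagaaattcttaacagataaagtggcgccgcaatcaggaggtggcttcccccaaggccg
Stk31, chr6:49345429-49345629: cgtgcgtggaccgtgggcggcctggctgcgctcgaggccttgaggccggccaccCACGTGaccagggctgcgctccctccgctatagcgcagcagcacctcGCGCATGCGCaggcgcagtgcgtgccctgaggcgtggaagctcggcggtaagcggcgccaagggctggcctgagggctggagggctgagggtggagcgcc
Tex12, chr9:50369293-50369493: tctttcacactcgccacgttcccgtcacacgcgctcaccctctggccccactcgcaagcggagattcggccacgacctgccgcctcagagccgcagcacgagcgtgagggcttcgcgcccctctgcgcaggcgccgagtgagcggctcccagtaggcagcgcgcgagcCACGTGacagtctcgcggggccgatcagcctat
Hdac2, chr10:36693730-36693930: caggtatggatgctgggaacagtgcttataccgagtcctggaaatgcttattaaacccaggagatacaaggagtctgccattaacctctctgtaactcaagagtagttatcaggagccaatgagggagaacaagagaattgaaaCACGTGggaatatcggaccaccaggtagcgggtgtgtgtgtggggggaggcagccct
Hsf5, chr11:87430571-87430771: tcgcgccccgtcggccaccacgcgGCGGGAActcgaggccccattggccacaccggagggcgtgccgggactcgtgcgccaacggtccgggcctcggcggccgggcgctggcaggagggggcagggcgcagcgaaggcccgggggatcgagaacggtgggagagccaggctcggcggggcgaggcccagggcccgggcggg
Rad21l, chr2:151495944-151496144: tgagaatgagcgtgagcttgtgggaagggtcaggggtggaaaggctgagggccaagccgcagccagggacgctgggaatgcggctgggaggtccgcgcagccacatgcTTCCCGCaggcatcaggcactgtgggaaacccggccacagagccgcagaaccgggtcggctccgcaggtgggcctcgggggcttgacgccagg
Taf7l, chrX:131009639-131009839: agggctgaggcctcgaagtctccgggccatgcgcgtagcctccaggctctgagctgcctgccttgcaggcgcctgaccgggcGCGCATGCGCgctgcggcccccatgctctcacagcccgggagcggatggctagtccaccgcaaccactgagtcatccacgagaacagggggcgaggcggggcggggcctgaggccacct

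The sequences of Ddx4, Tdrkh, Stk31, Tex12 and Hdac2 each held an E-box, those of Hsf5 and Rad21l an E2F site, and those of Stk31 and Taf7l an NRF1 site. The Ddx4 sequence was 77.1% G and C with 27 CpG, whereas the Hdac2 sequence was 49.8% G and C with 4 CpG. A match gives the letters in the window and does not show that a factor was bound there.

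The highest ratios were found at Ddx4, which encodes the germ cell RNA helicase Vasa (main TSS at chromosome 13, position 113442518, minus strand). The ratio was 9.96 and 10.2 in the Santa Cruz replicates and 10.3 and 10.5 in the Abcam replicates. The joined libraries held 33 Santa Cruz, 45 Abcam and 32 Input fragments there, so both ChIP libraries passed the Input in number although the Input was sequenced far deeper. The joined ratio was 8.98 (5.35 to 15.1) in the Santa Cruz and 9.93 (6.17 to 16.1) in the Abcam library. No other member had a joined ratio over 6.92 with either antibody.

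Tdrkh, a Tudor domain protein of the piRNA pathway, had 6.25, 6.22, 7.93 and 7.37 in the 4 files (Santa Cruz 1 and 2, Abcam 1 and 2). Stk31, which encodes a Tudor domain kinase of germ cells, had 5.61, 5.58, 6.87 and 6.47. All 4 files of these genes lay far above the limit of 2, although the files of an antibody are not independent.

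Taf7l encodes a germ cell form of a TFIID subunit, lies on chromosome X, and had 5.48, 5.81, 5.35 and 5.70. Boll, an RNA-binding protein of the DAZ family, had 4.93, 4.40, 5.30 and 4.99. Tex12, a protein of the central element of the synaptonemal complex, had 4.11, 4.32, 5.32 and 5.16. With these genes, 6 of the 15 highest members belonged to the 4 germ line lists. Others of the 15 were Neto2, an auxiliary subunit of kainate receptors, Hsf5, a member of the heat shock factor family, Gpr176, an orphan G protein-coupled receptor, and Ptpdc1, a protein phosphatase. The joined ratio of Neto2 was 5.16 (3.22 to 8.13) in the Santa Cruz and 6.15 (4.07 to 9.26) in the Abcam library. Also among the 15 were B930007M17Rik, BC016423 and Gm4969. In the annotation used they carry symbols of predicted or uncharacterised genes, which says nothing on their function.

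**Figure D1:**
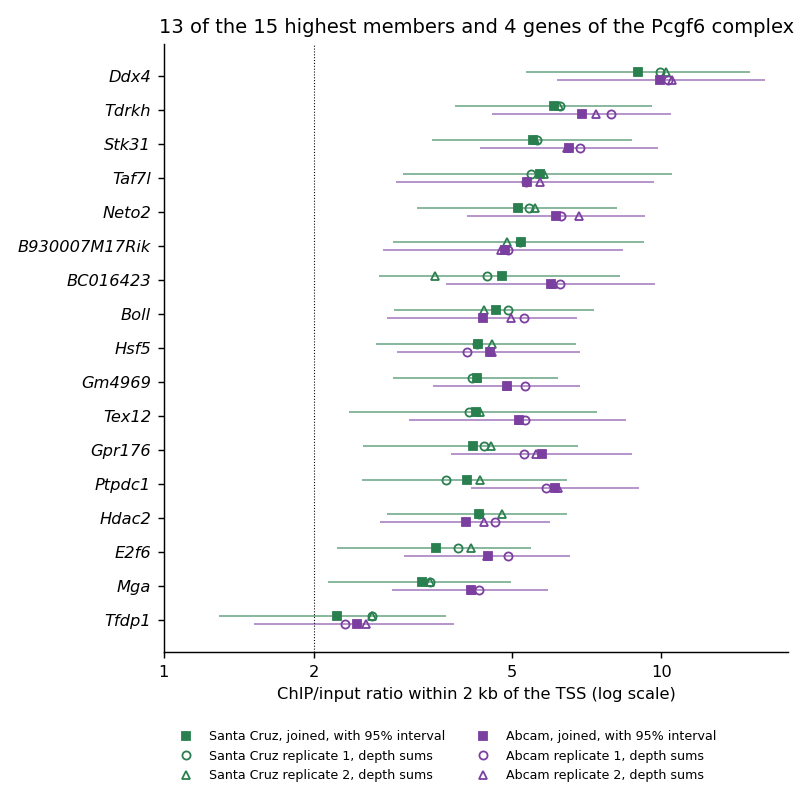
ChIP/input ratio within 2 kb of the TSS (log axis) for 13 of the 15 members with the highest lower ratio of both antibodies and for the 4 members that are genes of the Pcgf6 complex. Open symbols are the 2 files of each antibody, squares the joined library with its 95% counting interval, and the dotted line marks a ratio of 2. Ddx4 lies apart at 8.98 to 10.5, and the intervals of both antibodies overlap at every gene.

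Over all 181 members, the ratio ranged from 2.01 to 9.96 (median 2.68) in Santa Cruz replicate 1, from 2.003 to 10.2 (median 2.77) in replicate 2, from 2.07 to 10.3 (median 3.01) in Abcam replicate 1 and from 2.003 to 10.5 (median 3.02) in replicate 2. Most members lay near the limit. In 97 the lowest of the 4 ratios was under 2.5, in 48 it was 3 or more and in 16 it was 4 or more. Just inside the limit lay BC049762 (lowest ratio 2.003), Syce1 (2.003) and Nsun3 (2.01), and just outside it Cpeb1 (1.999), Iglc2 (1.99) and Zfyve16 (1.99). Between 1.9 and 2 there were 40 eligible promoters, and between 2 and 2.1 there were 23 members.

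The members were next grouped by function with 25 gene lists. The lists were chosen with earlier results of these data known, so the shares are a description. Of the 186 eligible promoters on any of 4 germ line lists, 23 were members (12.4%, against 0.946% of all eligible promoters), and these 23 made up 12.7% of the members. Their lower joined ratio ran from 2.14 at Syce1 to 8.98 at Ddx4. Over all 186 germ line promoters the median ratio was 0.9998 for Santa Cruz and 1.10 for Abcam, beside 0.871 and 0.925 over all eligible promoters, so most germ line promoters lay well under 2.

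Of 22 eligible promoters of the piRNA pathway, which silences transposons in germ cells, 6 were members (27.3%). Besides Ddx4, Tdrkh and Stk31 these were Mov10l1, Piwil2 and Tdrd1. Mov10l1, the RNA helicase of piRNA precursors, had joined ratios of 4.49 (2.84 to 6.99) and 3.65 (2.30 to 5.67) with Santa Cruz and Abcam. Piwil2, a PIWI protein that binds piRNA, had 2.90 (1.57 to 5.11) and 3.60 (2.15 to 5.88). Tdrd1, a Tudor domain scaffold, had 3.43 (2.13 to 5.39) and 2.39 (1.44 to 3.84). Over the whole list the median ratio was 1.22 with Santa Cruz and 1.70 with Abcam.

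Of 38 eligible promoters of meiosis genes, 10 were members (26.3%), and the median ratio of the list was 1.67 and 1.66. Tex12, Sycp1, Sycp2 and Syce1 encode parts of the synaptonemal complex, which holds homologous chromosomes together. Sycp1, its transverse filament, had 60 Input, 28 Santa Cruz and 34 Abcam fragments and joined ratios of 4.06 and 4.002. Sycp2, of the lateral element, had 3.58 and 2.52, and Syce1, of the central element, 4.35 and 2.14. Rad21l, Smc1b and Stag3 encode meiotic cohesin subunits. Rad21l had the highest of their ratios, 4.49 with Santa Cruz and 3.65 with Abcam, but its signal lay away from the TSS, as described with the positions. Smc1b had 2.90 and 3.14 and Stag3 had 2.99 and 2.56. The others were Zcwpw1, a reader of histone methylation in meiosis (3.27 and 3.199), Msh4, a MutS homologue of meiotic crossovers (2.94 and 2.96), and Hormad1, a protein of the chromosome axis (2.53 and 3.85).

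The list of germ cell fate held 3 members of 25 eligible promoters (12%). Beside Boll these were Dazl, an RNA-binding protein of the same family (3.17 and 2.68), and Dmrtb1, a transcription factor of spermatogonia (3.41 and 3.05). The list of testis and sperm genes held 6 of 107 (5.61%). Stk31 and Tex12 stand on this list too, and the others were Taf7l, Spata22, a protein of meiotic recombination (2.82 and 3.58), Slc25a31, the ADP/ATP carrier of testis (2.45 and 2.98), and Zpbp, an acrosomal protein (3.45 and 2.35). The median of this list, 0.849 and 0.997, was close to that of all eligible promoters.

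Of the 15 genes of the Pcgf6 complex itself, 4 were members (26.7%). Hdac2, a histone deacetylase, had 75 Input, 37 Santa Cruz and 43 Abcam fragments, and its ratio was 4.29, 4.79, 4.64 and 4.41 in the 4 files. E2f6 had 3.90, 4.14, 4.93 and 4.46. Mga had 3.43, 3.42, 4.30 and 4.16. Tfdp1 had the lowest values, 2.63, 2.62, 2.32 and 2.55, and is named here after its values were seen. The other 11 promoters of the list, Pcgf6, Max and L3mbtl2 among them, had joined Santa Cruz ratios of 0.477 to 1.10 and Abcam ratios of 0.290 to 1.59, all below those of the 4 members.

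Of 77 eligible DNA repair promoters, 6 were members (7.79%). Msh4 and Rad21l are the meiotic genes named above, and the others were Fancf of the Fanconi anaemia pathway, Ercc6, Rad50 and Pms2. Fancf had 3.40 and 2.98 and shared its window with Gas2, whose TSS lies 160 bp away. Among 398 ubiquitin and proteasome genes 11 were members (2.76%), led by the deubiquitinase Usp47 (3.73 and 3.48) and Rnf219 (3.26 and 4.59). The 2 members among 71 histone promoters (2.82%) were Hist1h2aa and Hist1h2ba, the testis forms of H2A and H2B, which start 306 bp apart and had the same ratios of 2.22 and 2.31.

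The cell cycle list held 3 members of 189 (1.59%), E2f6, Cenpk and Kif2a. The chromatin regulators held 3 of 186 (1.61%), Hdac2, Hmgn3 and Phf20. RNA processing genes held 3 of 261 (1.15%), Ddx4, Eif5a2 and Ddx19b. Cytochrome P450 and conjugation genes held 3 of 203 (1.48%). Of these Cyp2r1, a vitamin D hydroxylase, had 3.92 and 4.06, whereas Cyp7a1, the rate-limiting enzyme of bile acid synthesis, had 6 Santa Cruz and 9 Abcam fragments. Solute carriers and channels held 2 of 673 (0.297%), mitochondrial genes 1 of 253 (0.395%), zinc finger genes 1 of 389 (0.257%) and immune genes 1 of 373 (0.268%). The 3 chemoreceptor members of 423 (0.709%), Olfr1328, Taar7f and Olfr357, had 5 to 7 fragments with each antibody.

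No member was found among 31 pluripotency promoters, 40 Hox promoters, 151 promoters of lineage transcription factors, 31 promoters of other Polycomb subunits, 17 Trithorax promoters, 133 ribosomal protein promoters or 138 keratin and defensin promoters. At the overall share of 0.946%, a list of any of these sizes would hold few members or none, so each zero taken singly lies near the background. These lists were not counted together. The median Santa Cruz ratios of these lists ran from 0.690 (pluripotency) to 0.901 (keratin and defensin), beside 0.871 over all eligible promoters. The Abcam medians ran from 0.778 (pluripotency) to 1.03 (lineage factors), on both sides of the overall 0.925. At this depth a promoter with a modest excess of ChIP fragments would not reach the limit, so the zeros hold for a ratio of 2 only.

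**Figure D2:**
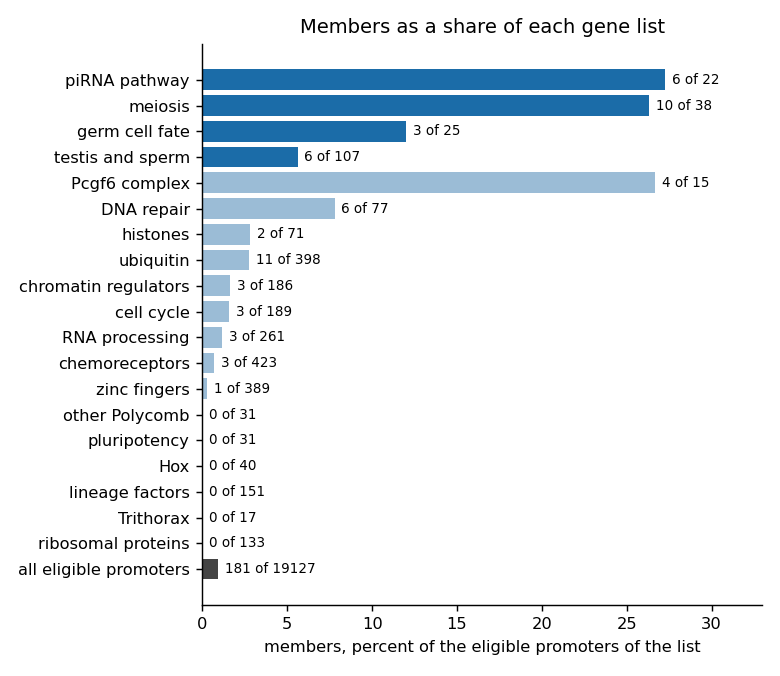
Members as a percentage of the eligible promoters of each gene list, with the counts beside each bar (bars start at 0). The piRNA, meiosis and Pcgf6 complex lists reach 26.3% to 27.3%, beside 0.946% for all eligible promoters (black bar). The lists were chosen with earlier results of these data known.

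Of the 181 members, 26 had symbols of predicted or uncharacterised genes (1.05% of 2468 eligible) and 96 stood on no list (0.768% of 12506). Among those 96 were further genes that are mainly used in germ cells, named here after their values were seen. Dmrtc2, a doublesex-related factor of testis, had 2.49 (1.51 to 3.95) in the Santa Cruz and 4.12 (2.84 to 5.93) in the Abcam library. Sox30, a testis SOX factor, had 2.98 (1.79 to 4.81) and 4.44 (2.97 to 6.56). Gpat2, a mitochondrial acyltransferase of testis, had 2.54 (1.58 to 3.97) and 2.62 (1.70 to 3.95).

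The members differed from the rest in CpG class. A promoter was called CpG-rich where a 500-bp window between 0.5 kb upstream and 2 kb downstream of the TSS had a GC content of at least 55% and an observed over expected CpG of at least 0.6, CpG-poor where no window reached 0.4, and intermediate otherwise. Among the members 155 were CpG-rich (85.6%), 10 intermediate (5.52%) and 16 CpG-poor (8.84%). Among all eligible promoters the shares were 64.9%, 19.3% and 15.8%. Expressed the other way, 1.25% of CpG-rich, 0.271% of intermediate and 0.528% of CpG-poor eligible promoters were members. The counting interval of the joined ratio lay above 1 with both antibodies at 152 members. These were 144 of the 155 CpG-rich, 5 of the 10 intermediate and 3 of the 16 CpG-poor members. Among all eligible promoters, members included, it did so at 244 (1.28%). The rule chose the members by the depths in the same windows, so their intervals lean upward. The counts by class are therefore a description and cannot show which members hold a true excess. At most CpG-poor members the excess over Input was within counting error with at least 1 antibody, even after this choice. The members held a median of 66.9 CpG per kb within 500 bp of the TSS, and all eligible promoters 49.0.

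The Input depth moved with these classes, and its part in the counts was not tested. The CpG-poor members held 21 to 35 Input fragments (median 25), with a median of 7 ChIP fragments for either antibody, whereas the CpG-rich members held 21 to 122 (median 65), with 22 Santa Cruz and 29 Abcam fragments. In each class the members had less Input than the eligible promoters, whose medians were 81 (CpG-rich), 61 (intermediate) and 53 (CpG-poor). The rule divides by this same Input, so the difference is tied to the choice and is no separate trait of the members. Among promoters with 20 to 40 Input fragments, 3.39% of the CpG-rich and 1.61% of the CpG-poor were members. With 60 to 80 Input fragments the shares were 1.75% of 3708 CpG-rich and 0 of 656 CpG-poor promoters.

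The 5 highest of the 16 CpG-poor members were Rad21l, Kcnj13, which encodes a potassium channel, 4930415F15Rik, Gm9972 and Olfr1328. Of these, 4930415F15Rik had its signal maximum at the same place as the CpG-rich member Zpbp, so the signal is not its own alone. Phf20, Cyp7a1, Taar7f and Olfr357 were CpG-poor too. The 5 highest intermediate members were Cenpk, Piwil2, Prr19, Fsip2 and Gpat2. Cenpk, a kinetochore protein, had 4.63 (2.73 to 7.68) and 3.01 (1.69 to 5.17) and starts 544 bp from Ppwd1, which is a member too.

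**Figure D3:**
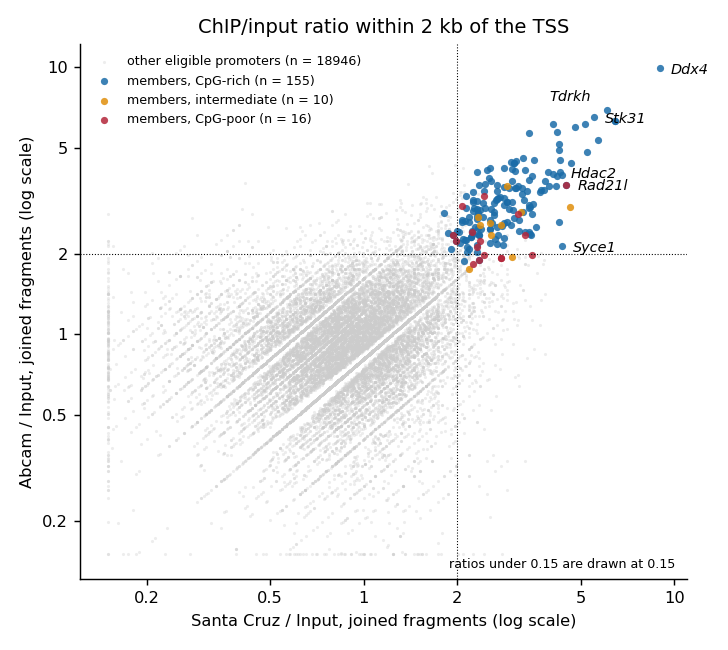
Joined ChIP/input ratio with Santa Cruz (x axis) and Abcam (y axis) at the 181 members, coloured by CpG class, and at the other eligible promoters (grey), on log axes. Both axes share the Input as divisor, the dotted lines mark a ratio of 2, and Ddx4 lies farthest from the rest at 8.98 and 9.93.

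The position of the signal inside the window was not used to choose the members. Within 500 bp of the TSS lay 53.0% (51.4 to 54.6) of the 3762 Santa Cruz fragments and 55.7% (54.3 to 57.0) of the 5039 Abcam fragments of the members. The Input of the same promoters had 39.1% (38.2 to 40.1) there. Over all eligible promoters the shares were 32.8%, 34.5% and 34.1% for Santa Cruz, Abcam and Input. At the members the central share was thus higher in both ChIP libraries than in the Input. The sums count a fragment once for each member window that holds it, and 18 loci held 2 members with overlapping windows. The intervals take the summed fragments as independent and leave out the spread between promoters. At the 23 germ line members the share was 62.7% (58.8 to 66.6) and 65.8% (62.2 to 69.3), with 43.8% in the Input.

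The central ratio over all members was 3.98 (3.77 to 4.20) in the Santa Cruz and 4.54 (4.33 to 4.76) in the Abcam library. From 1.5 to 2 kb from the TSS it was 1.73 (1.54 to 1.92) and 1.77 (1.60 to 1.96). At the CpG-poor members the order was turned around. Their ratio was 1.98 (1.25 to 3.02) and 1.78 (1.15 to 2.68) within 500 bp, and 4.57 (3.204 to 6.46) and 3.995 (2.83 to 5.5996) between 1.5 and 2 kb, where they held 52 Santa Cruz and 56 Abcam fragments in all. Rad21l, with its signal far upstream, is one of these members. It held 23 fragments of both antibodies together in the 500 bp around its maximum. Another of these members, 4930415F15Rik, shared its maximum with the CpG-rich member Zpbp. No value without Rad21l or 4930415F15Rik is given.

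In the average profile of the CpG-rich members, the highest bin was 0 to 200 bp downstream of the TSS for both antibodies and the Input. On a scale of fragments per kb and per 1000000 fragments of the library, it held 5.75 (Santa Cruz), 6.44 (Abcam) and 1.33 (Input). Beyond 4 kb the values were 0.452, 0.501 and 0.488, so the ChIP peak stood 12.7 and 12.9 times above its surroundings and the Input peak 2.73 times. Over all eligible promoters the peak was 1.08, 1.22 and 1.27.

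**Figure D4:**
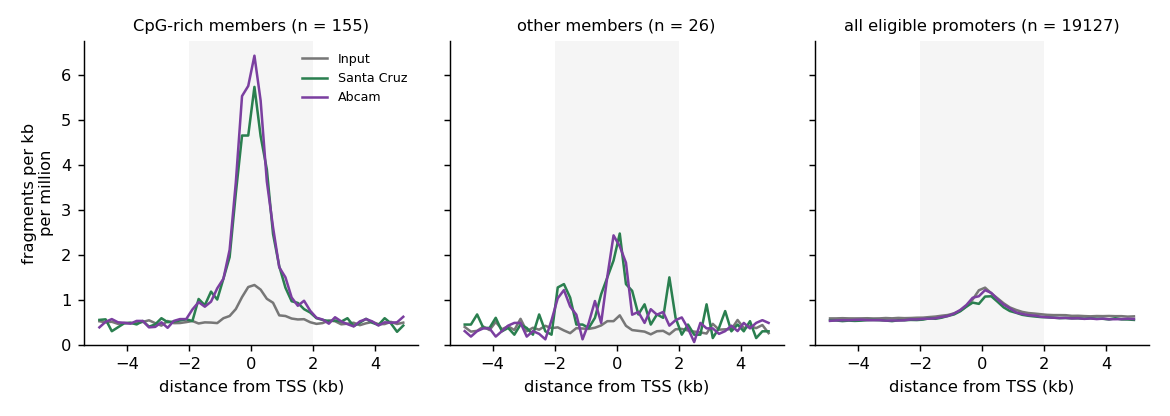
Fragments per kb and per 1000000 fragments of the library in 200-bp bins against the distance from the TSS in the direction of transcription, for CpG-rich members, the other 26 members and all eligible promoters. The shaded part is the window that chose the members. The CpG-rich members peak at 5.75 and 6.44 near the TSS, and beyond 4 kb their 3 libraries lie between 0.452 and 0.501.

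The place of densest signal was taken as the 500-bp window with most fragments. With both antibodies together it lay within 500 bp of the TSS at 132 members (72.9%) and at 44.6% of eligible promoters. It lay downstream of the TSS at 95 members (52.5%, against 55.9% of eligible promoters) and upstream at 84. Of the 181 maxima, 68 lay outside protein-coding transcripts, 42 in introns, 37 in untranslated parts of exons and 34 in coding exons. The intron share was 23.2% at members and 39.2% at eligible promoters. The share outside protein-coding transcripts was 37.6% against 35.4%, that in untranslated parts 20.4% against 13.6% and that in coding exons 18.8% against 11.8%.

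The maximum was also found in each antibody separately. The maxima of Santa Cruz and Abcam lay a median of 150 bp apart at the members and 805 bp apart at eligible promoters, and within 250 bp of each other at 119 members (65.7%) against 21.02%. Members hold more ChIP fragments, which places a maximum more exactly, and the part of this was not tested. By class, the median gap was 130 bp at CpG-rich members (725 bp at CpG-rich eligible promoters), 222.5 bp at intermediate members and 892.5 bp at CpG-poor members (995 bp at CpG-poor eligible promoters). At Hsf5 the maxima lay 10 bp downstream and 10 bp upstream of the TSS, and at Gpr176 they lay at -790 and -810 bp (upstream values are negative). At Olfr1328 they lay at 1610 and -1860 bp.

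**Figure D5:**
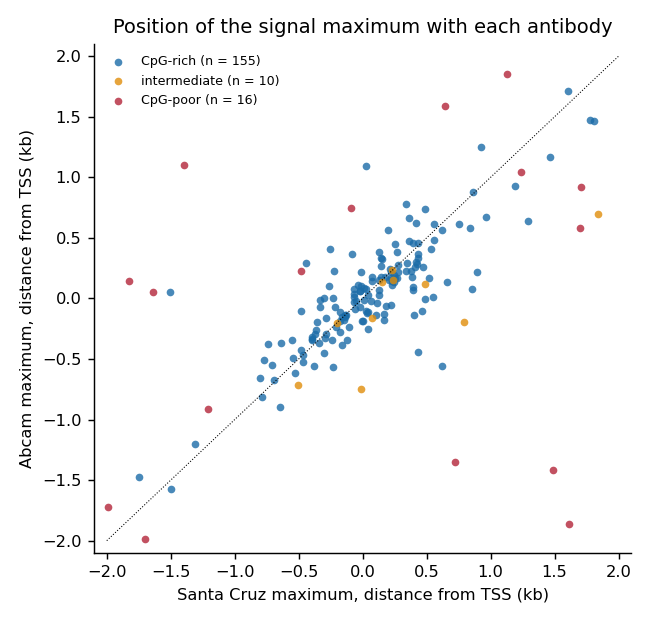
Distance of the signal maximum from the TSS with Santa Cruz (x axis) and Abcam (y axis) in kb at the 181 members, coloured by CpG class, with positive values downstream. Most CpG-rich members lie close to the diagonal near 0, and the CpG-poor members are scattered over the window.

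At 22 members (12.2%, against 30.9% of eligible promoters) the maximum of both antibodies together was over 1 kb from the TSS. At 6 of these 22 it lay within 500 bp of another annotated start of transcription. The Fbxo46 maximum lay at -1500 bp, 9 bp from the TSS of Gm4969, which is itself a member with a higher ratio. The Mepce maximum lay at -1300 bp, 217 bp from the TSS of Zcwpw1. The Taf7l maximum lay at 1290 bp, in an intron and 207 bp from another annotated start, but the antibodies differed, with the Santa Cruz maximum at 1295 bp and the Abcam maximum at 640 bp. At Rad21l it lay at -1775 bp, outside any protein-coding transcript, and the maxima of Santa Cruz and Abcam taken singly were on that side too (-1705 and -1990 bp). The Rad21l promoter was CpG-poor over the stretch that set the class, while the 201 bp beneath the signal were 68.2% G and C with 14 CpG.

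Outside the window the ratio fell close to 1. In flanks that began 150 bp beyond the window and ended 5 kb from the TSS, the ratio over all members was 1.01 (0.951 to 1.07) in the Santa Cruz and 1.01 (0.953 to 1.06) in the Abcam library. Its intervals lay above the 0.911 and 0.917 of all eligible promoters, but they too take summed fragments as independent and leave out the spread between promoters. Each flank was tested for a ChIP excess by an exact binomial test (one-sided, p-values adjusted after Benjamini and Hochberg over the 19127 eligible promoters). It called 4 promoters for Santa Cruz (0.0209%) and 11 for Abcam (0.0575%), of which 0 were members. A called flank can cover the signal of a neighbouring member. Among the called promoters, Mlc1 (both antibodies) starts 3902 bp from the member Mov10l1, and Bdp1 (Abcam) 3927 bp from the member Serf1. At an unadjusted p under 0.05 the members counted 12 with Santa Cruz (6.63%, against 3.83% of eligible promoters) and 6 with Abcam (3.31%, against 3.95%). With a flank of 5 to 10 kb, 9 eligible promoters were called for Santa Cruz, 2 of them members, and 19 for Abcam, 1 of them a member. The test compares fragments of these libraries and has no independent replicate behind it.

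The antibodies were compared directly within 2 kb of the TSS. A two-sided exact binomial test called 0 of the 19127 eligible promoters (0%) at an adjusted p under 0.05. At an unadjusted p under 0.05 there were 724 (3.79%), and 4 of the members (2.21%), which the rule had already held to a high ratio with both antibodies. The Abcam density was 0.492 to 1.74 times that of Santa Cruz at the members, with a median of 1.07 beside 1.05 at all eligible promoters. The lowest value was at Syce1, with 33 Santa Cruz and 20 Abcam fragments. The highest was at Capn10, with 20 and 43. At this depth a difference of moderate size at a single promoter was not detectable.

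The 6 motifs were searched in the 500 bp centred on the signal maximum, in members and eligible promoters alike. They too had been chosen with earlier results of these data known. The E-box, the site of Max dimers, was found at 68 members (37.6%) and at 11.3% of eligible promoters. All 68 were CpG-rich, which is 43.9% of the CpG-rich members beside 13.5% of the CpG-rich eligible promoters. The E2F site was found at 44 members (24.3%, against 8.08%), and within the CpG-rich class at 27.1% against 11.2%. The NRF1 site was found at 19 members (10.5%, against 2.30%) and within the CpG-rich class at 10.97% against 2.98%. Each of these motifs holds a CpG, and the GC content around the maximum moved with membership (median 63.3% at CpG-rich members and 57.3% at CpG-rich eligible promoters). The part of this in the shares was not tested. At least one of E-box and E2F site was found at 95 members (52.5%, against 18.2%), and both at 17 (9.39%, against 1.17%).

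The other motifs lay closer to the background. The ETS site (CCGGAAG) was found at 14.9% of members and 8.29% of eligible promoters, the T-box site (TCACACC) at 8.29% and 6.996%, and the YY1 site at 7.18% and 9.64%. Among the 23 germ line members, 11 had an E-box (47.8%), 11 an E2F site and 8 an NRF1 site (34.8%). Over all 186 germ line eligible promoters the shares were 18.3%, 17.7% and 8.06%. Among the 158 other members the shares were 36.1%, 20.9% and 6.96%. Centred on the TSS in place of the maximum, the E-box was at 29.8% of members and 11.2% of eligible promoters. In the CpG-rich class the TSS-centred shares were 32.9% against 13.3% for the E-box and 24.5% against 15.3% for the E2F site. They were 12.3% against 6.33% for the NRF1 site and 25.8% against 21.9% for the ETS site. The shares of members and eligible promoters were thus closer together than at the maximum. Eligible promoters hold fewer ChIP fragments, so their maximum is placed less exactly, and the part of this in the motif shares was not tested.

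Function, CpG class and motifs differed along the ratio that chose the members, and these values are a description. The 417 promoters whose lowest ratio was 1.5 to 2, just under the limit, were 70.98% CpG-rich and 2.64% germ line, and 20.1% had an E-box at the maximum. The 133 members from 2 to 3 were 82.0% CpG-rich and 9.02% germ line, and 36.1% had an E-box. The 48 members at 3 or more were 95.8% CpG-rich and 22.9% germ line, and 41.7% had an E-box. The median gap between the maxima of both antibodies went from 310 to 195 and then 102.5 bp. The median Input was 54, 62 and 62.5 fragments in these steps, while the Abcam fragments rose from 15 to 22 and 35, so the number of ChIP fragments moved with the gap.

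The 181 members formed 163 separate loci, since 18 loci held 2 members with overlapping windows, and such pairs share most of their fragments. Smc1b and Ribc2 start 142 bp apart, Stag3 and Gpc2 235 bp apart and Lypd4 and Dmrtc2 116 bp apart. Another protein-coding gene started within 1 kb at 31 members (17.1%) and at 12.7% of eligible promoters. The members lay on all autosomes and on chromosome X, with the most on chromosome 3 (18 of 960 eligible, 1.88%) and 1 of 480 on chromosome 18 (0.208%). Chromosome X held 3 of 542 (0.554%).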

How the data were processed

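Pcgf6 ChIP-seq of CCE ESCs comprised 5 libraries, 2 per antibody and 1 Input. The authors deposited coverage as a signal along mm9, with each read lengthened to 300 bp, neither scaled nor divided by Input. The submitters' processing notes name Bowtie 0.1.2.7, and the treatment of duplicates and the mapping filter are not given in the sources used here. Either could lower depth in repeats. Promoters outside the Input range were left out (3210 below, 22 above).

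Main TSSs came from GENCODE vM1, as the start shared by most protein-coding transcripts. Members were chosen by scaled depth sums. Fragment positions were recovered from the steps of the depth, and at most 0.0866% of falls were left without a start. Replicates of an antibody were matched at shifts of 1 or 15 bp, give or take 1 bp, and joined, 1 fragment per position. Joined ratios were scaled by library totals.

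The members, gene lists and motifs were chosen with earlier results of these data known. The genes named were the 15 highest members (1 locus among them is not reported here), every germ line member, up to 3 members of each other list, the promoters next to the limit, the 5 highest of each CpG class and every member called by a test. Others were named after their values were seen. Binomial tests were adjusted after Benjamini and Hochberg over all eligible promoters with a threshold of 0.05. Fragment recovery, the binomial tests, the search for the maximum and the ratio interval were tried on simulated data, and the other steps were not. Alternatives varied the window, fold, Input minimum, scaling, CpG classes, flank, joining and each replicate. Steps ran in Python 3.11.15 with scipy 1.17.1 and numpy 2.4.6, tables in pandas 2.3.3, loops in numba 0.67.0 and plots in matplotlib 3.10.9.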

Additional observations from a re-analysis of the deposited data

How the results depend on the processing

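The number of members was 305 with a window of 1 kb, 116 with 3 kb, 282 with scaling by the median ratio, 598 at a fold of 1.5 and 48 at a fold of 3, and without one replicate it ranged from 193 to 208. Of the 181 members, 145 were kept with 1 kb, 105 with 3 kb and 163 of 234 promoters with joined fragments. The CpG-rich share was 75.4% at a fold of 1.5, 95.8% at 3, 96.6% with an Input minimum of 12000 and 78.5% with stricter classes (55.7% of eligible promoters), and 83.4% to 86.5% without one replicate. Germ line members numbered 11 at a fold of 3 and 23 to 25 without one replicate. The central share of Santa Cruz was 29.1% within 250 bp and 77.4% within 1 kb (53.3% and 53.4% without one replicate), and that of Abcam 31.7% and 78.4% (55.2% and 55.7%). These regions differ in length by construction. The flank ratio became 1.16 with Santa Cruz and 1.09 with Abcam under scaling by the median ratio (1.007 to 1.009 and 1.01 to 1.02 without one replicate). Promoters called in the flanks numbered 9 and 19 from 5 to 10 kb, 15 and 17 under median scaling, and 2 to 5 (Santa Cruz) or 9 to 11 (Abcam) without one replicate, the 2 being without Santa Cruz replicate 2. The antibody comparison gave 0 under each of its 6 alternatives. All other alternatives stayed within the counting interval or 1.5 times the value given. No paired analysis was possible because the replicates of each antibody were counted as 1 sample and no test used replicates.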
